A study of Mus musculus with 2 samples.

Results

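The insulin-like growth factor (IGF) system genes described here are Igf1, Igf1r, Igf2r, Igfbp2, Igfbp3, Igfbp4, Igfbp5, Igfbp6 and Igfbp7. They were taken by gene symbol, 9 of the 54754 features counted, and each symbol matched 1 feature. Their UMIs, counts of distinct captured RNA molecules, were read in single nuclei of the mouse aorta, from its ascending part and its arch. Both libraries came from Wnt1-Cre/Rosa26-mTmG mice: the Female library was a pool of 6 female mice and the Male library a pool of 6 male mice. Wnt1-Cre is active in the neural crest, and the mTmG allele makes cells switch from a membrane tdTomato to a membrane GFP where Cre has acted, so GFP marks cells with a Wnt1-Cre history. The labels give no age and no group without Cre. With 1 pooled library a sex, no value per animal can be had, and sex cannot be told apart from library. The 2 technical splits of each pool cannot be seen in the barcodes.

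IGF1 is a secreted growth factor that signals through the tyrosine kinase receptor IGF1R, which activates phosphoinositide 3-kinase. In blood vessels this signal is known for promoting survival, growth and migration of smooth muscle cells. IGF2R carries IGF2 and mannose 6-phosphate proteins to lysosomes and does not act as a growth signal receptor. The binding proteins IGFBP2 to IGFBP6 hold IGF1 and IGF2 in the extracellular space and can limit or prolong their action, whereas IGFBP7 binds IGFs weakly and is known as a vascular matrix protein.

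Nuclei with at least 300 genes were kept, 18863 Female and 20653 Male, with a median of 3546 and 3104 UMIs. Each nucleus was placed by the largest summed UMI count, at least 3, over 3 marker genes of smooth muscle, endothelium, fibroblast, fat cell or macrophage, which placed 36356 of 39516 nuclei (92.0%). The muscle class held 8124 Female and 7656 Male nuclei, the endothelial class 5166 and 6766, the fibroblast class 2181 and 2477, the fat class 1475 and 1334, and the macrophage class 481 and 696. All of 15 further marker genes that the rule did not use were highest in their own class in both libraries. The libraries shared 4287 barcode sequences. The fibroblast class also held nuclei whose largest marker sum was that of mesothelium, the cell layer that covers the outer surface of organs: 66 Female and 137 Male. The summed mesothelial markers Msln, Upk3b and Wt1 reached 118 and 222 CPM (UMIs per 1000000 UMIs of the class) in Female and Male fibroblasts, and the macrophage class held 857 and 573 CPM of B cell markers (Pax5, Bank1 and Ms4a1). Flt1, an endothelial marker of the rule, had 142 and 127 CPM in Female and Male muscle, against 126 and 145 CPM in endothelium. Igf1r had the most UMIs of the set, 53216 Female and 48015 Male, and Igfbp3 the fewest, 277 and 209. A CPM value grows with the length and intron content of a gene, so levels are compared between classes of nuclei and never between genes.

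The ligand gene was high in macrophages, fat cells and fibroblasts and low in muscle and endothelium, while the signalling receptor Igf1r was highest in muscle and lowest in fat. Fibroblasts held the highest levels of Igfbp3, Igfbp4, Igfbp5 and Igfbp6, and muscle those of Igfbp2 and Igfbp7. Igf1r, Igf2r and Igfbp7 were also above the mean of the other classes in fibroblasts. Each class was tested against the mean of the other 4 with edgeR's quasi-likelihood test on UMIs summed per library and class, 10 sums with the library as a block, and called at an adjusted p under 0.05. The block removed the overall difference between the 2 libraries. The p-values therefore measure how far class differences varied between these 2 libraries, and not a spread between animals, since the labels give no separate animals.

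**Figure D1:**
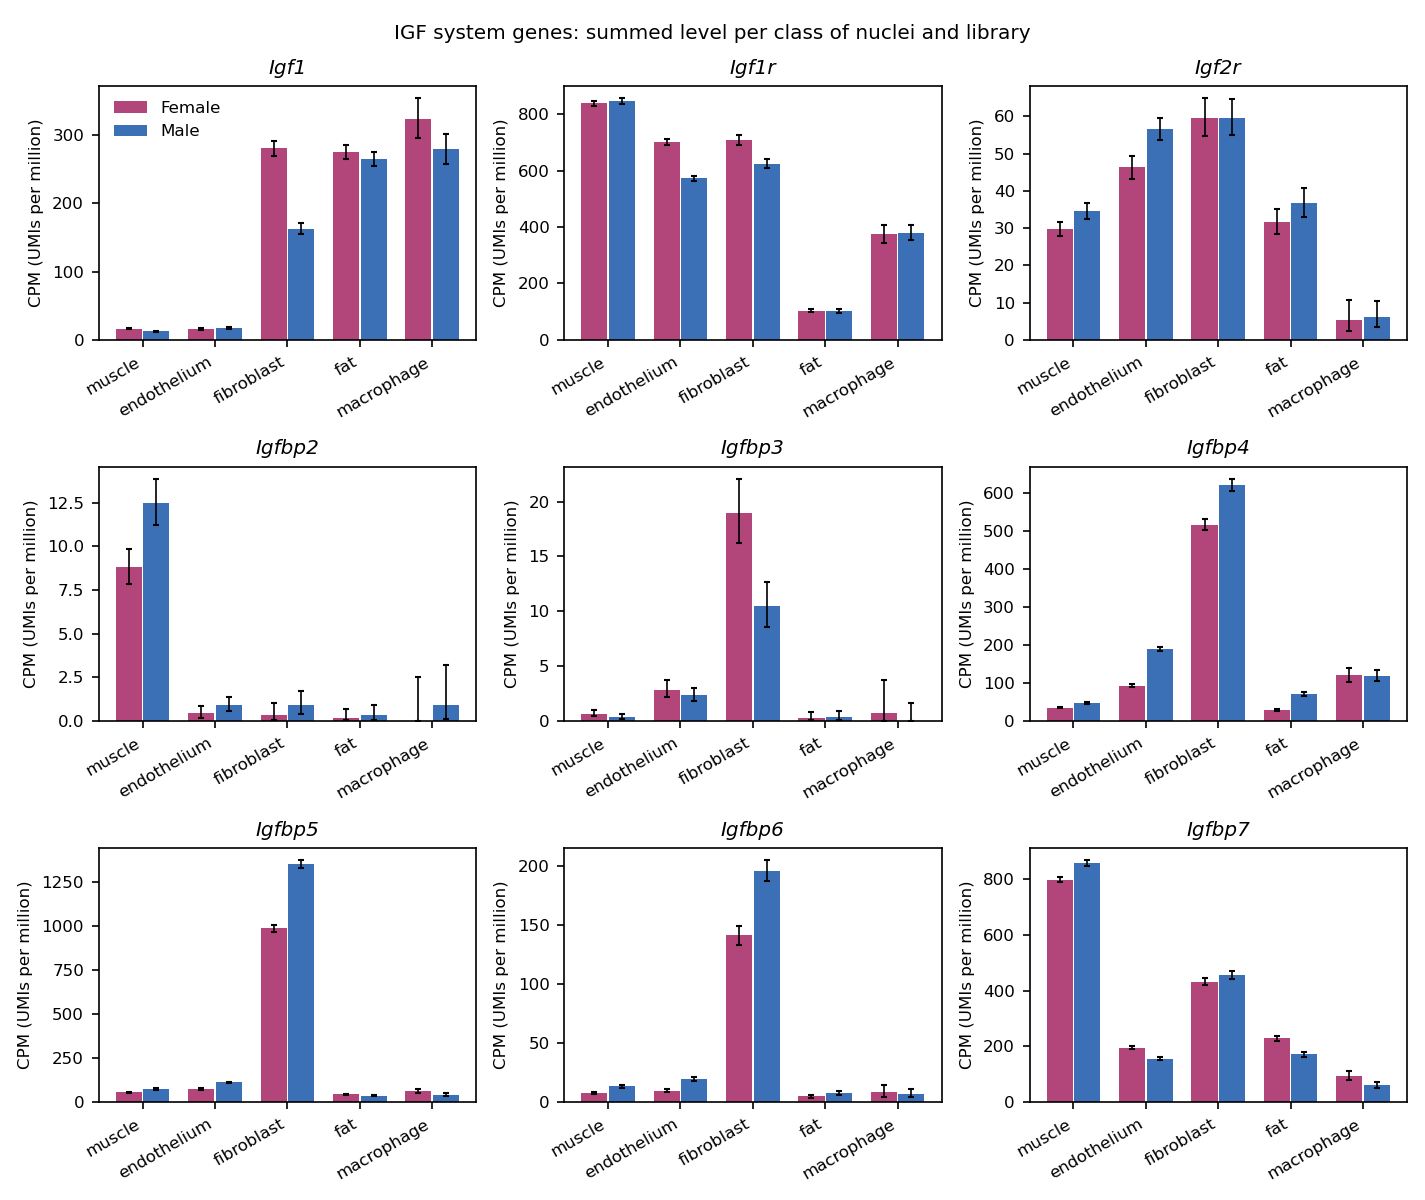
Bars give the UMIs of each IGF system gene per 1000000 UMIs (CPM) in the 5 classes of nuclei, Female left and Male right, and lines the exact 95% Poisson interval, which covers counting error. Igf1 stood at 162 to 324 CPM in fibroblasts, fat cells and macrophages and at 12.1 to 17.4 CPM in muscle and endothelium, Igfbp5 stood at 987 and 1352 CPM in fibroblasts and at no more than 109.8 CPM elsewhere, and each panel has its own scale from 0.

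In fibroblasts 8 of the 9 genes were called higher and 0 lower, where 23.9% of all 19490 genes tested were higher and 19.7% lower. The exception was Igfbp2, at 0.339 and 0.895 CPM in Female and Male fibroblasts. The median log2 difference of the 9 genes was 1.67 in fibroblasts, against -0.02 over all genes tested. In muscle 4 were higher (24.3% of all genes) and 4 lower (23%), with a median of -0.73 against -0.03 over all genes. In fat 2 were higher (32.8% of all genes) and 7 lower (33.3%), with a median of -1.79 against -0.05. Of these 7, Igfbp2 rested on 2 Female and 3 Male UMIs in fat, and Igfbp3 on 3 and 3. Fat nuclei were deeper than those of the other classes, at a median depth of 6875 UMIs in the Female and 6979 UMIs in the Male library, and 5 of the 9 members were called in fat when each nucleus was thinned to 1000 UMIs. In endothelium 3 were higher (24.3%) and 2 lower (21.4%), with a median of -0.19 against -0.01. In macrophages 1 was higher (19.3%) and 5 lower (22.3%), with a median of -1.45 against -0.22. The counts in endothelium stood near the shares over all genes.

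**Figure D2:**
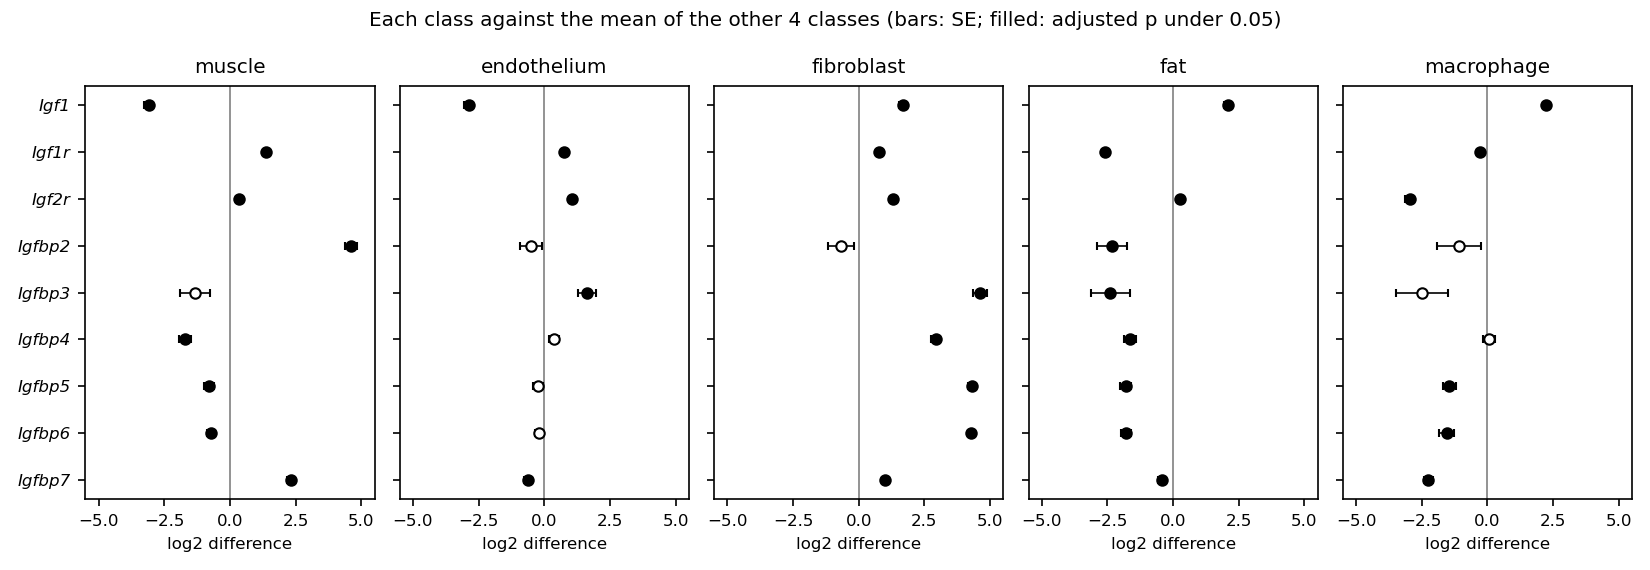
Points give the log2 difference of each IGF system gene between one class of nuclei and the mean of the other 4, with its SE (bars), and filled points have an adjusted p under 0.05. Igfbp3, Igfbp5 and Igfbp6 lay above 4 in fibroblasts, Igfbp2 lay at 4.61 in muscle, and Igf1 lay at 2.07 in fat and 2.23 in macrophages.

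Igf1 (chr10:87858265-87937042, plus strand, GRCm38) encodes the ligand. It had 324 CPM in Female and 280 CPM in Male macrophages, 275 and 265 CPM in fat cells, and 281 and 162 CPM in fibroblasts. Endothelium had 15.9 and 17.4 CPM, and muscle 16.4 and 12.1 CPM. The 3 high classes did not overlap with the 2 low ones in either library. The log2 difference from the other classes was 2.23 ± 0.13 (SE) in macrophages (adjusted p = 4e-07), 2.07 ± 0.13 in fat (adjusted p = 2.5e-07) and 1.67 ± 0.13 in fibroblasts (adjusted p = 3.4e-06). It was -3.09 ± 0.18 in muscle (adjusted p = 2.9e-07) and -2.89 ± 0.17 in endothelium (adjusted p = 5.4e-07). Between neighbours in this order, macrophages and fat differed by 0.13 (adjusted p = 0.59) and fat and fibroblasts by 0.32 (adjusted p = 0.14), neither of them called. The step from fibroblasts to endothelium was 3.64 (adjusted p = 4.3e-07). Fat cells held 41.0% and 43.2% of all Igf1 UMIs in kept nuclei of the Female and Male libraries, although they gave 14.0% and 12.4% of all UMIs. Igf1 overlaps the opposite-strand gene Igf1os, and its counts are uncertain to that extent, because no source used here gives the strand setting of the counting.

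After each nucleus was thinned to 1000 UMIs, 26.0% of Female and 21.4% of Male macrophages, 17.8% and 17.9% of fat cells, and 16.0% and 11% of fibroblasts had an Igf1 UMI. In muscle 1.12% and 0.713% did, and in endothelium 0.942% and 0.756%, the background beside which the higher shares stand. Without thinning, the shares were 43.5% and 39.4% in macrophages and 3.09% and 2.01% in muscle, at median depths of 2392 and 2682 UMIs in macrophages and 3844.5 and 3015.5 UMIs in muscle. Nuclei with pericyte markers as the largest sum, which had 295 and 285 CPM of Igf1, numbered 122 Female and 84 Male in the fibroblast class. With all nuclei of other cell types left out, fibroblasts had 286 and 167 CPM of Igf1. Nuclei of the B cell marker group, whose markers were present in the macrophage class, had 12.9 and 20.6 CPM of Igf1.

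Within the fat class, Igf1 followed the kind of fat cell. Nuclei marked by Cyp2e1, Retn and Cfd, genes of white fat, had 663 CPM in the Female and 476 CPM in the Male library (513 and 651 nuclei). Nuclei marked by Ucp1, Cidea and Ppara, genes of brown fat, had 74.1 and 74.6 CPM (942 and 655 nuclei). The white-type nuclei were higher in both libraries, and their median depths were 6453 and 6698 UMIs against 7192 and 7391 UMIs in the brown-type nuclei. Among fibroblasts, nuclei marked by Pex5l, Adamtsl2 and Lsamp had 421 and 296 CPM, those marked by C7 and Plcxd3 317 and 167 CPM, and those marked by Pi16 and Dact2 158 and 130 CPM. The order of the 3 fibroblast subsets was the same in both libraries. The subset markers were taken from known leading genes of these data, so all subset levels are a description with no test.

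Igf1r (chr7:67952827-68233668, plus strand) encodes the signalling receptor. It had 839 and 847 CPM in Female and Male muscle, 710 and 625 CPM in fibroblasts, 702 and 572 CPM in endothelium, 375 and 380 CPM in macrophages, and 103 and 103 CPM in fat. Muscle was highest and fat lowest in both libraries. The log2 difference from the other classes was 1.36 ± 0.085 in muscle (adjusted p = 5.8e-07) and -2.59 ± 0.11 in fat (adjusted p = 2.4e-08). It was 0.77 ± 0.09 in fibroblasts (adjusted p = 5.8e-05), 0.74 ± 0.09 in endothelium (adjusted p = 7.2e-05) and -0.28 ± 0.10 in macrophages (adjusted p = 0.04), a call that was lost with DESeq2 (-0.24, adjusted p = 0.071) and without the library as a block (-0.29, adjusted p = 0.063). Fibroblasts and endothelium, neighbours in the order, differed by 0.03 (adjusted p = 0.89), while each other step passed the test. At 1000 UMIs a nucleus, an Igf1r UMI was found in 51.7% and 51.0% of muscle nuclei and in 8.33% and 8.34% of fat nuclei. Both kinds of fat cell were low, with 104 and 113 CPM in the white-type and 103 and 91.9 CPM in the brown-type nuclei. In endothelium, nuclei marked by Nrg1 and Emcn had 985 and 809 CPM, and those marked by Ankrd33b, Chn2 and Fgfr3 had 507 and 375 CPM. Fat thus had a high level of the ligand gene and the lowest of the receptor gene among the classes, and muscle a low level of the ligand gene and the highest of the receptor gene.

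Igf2r (chr17:12682406-12769664, minus strand), the gene of the lysosomal trafficking receptor, had 59.6 and 59.7 CPM in fibroblasts, 46.3 and 56.6 CPM in endothelium, 31.6 and 36.8 CPM in fat, 29.7 and 34.5 CPM in muscle, and 5.38 and 6.15 CPM in macrophages, there from 8 and 14 UMIs. Macrophages were lowest in both libraries, and their log2 difference from the other classes was -2.96 ± 0.18 (adjusted p = 4.4e-07). Fibroblasts (1.29 ± 0.09), endothelium (1.07 ± 0.09), muscle (0.33 ± 0.095) and fat (0.28 ± 0.0998) were called higher, with adjusted p = 2e-06, 6.4e-06, 0.017 and 0.03. The call in fat was lost with DESeq2 (0.27, adjusted p = 0.085) and with thinned nuclei (0.25, adjusted p = 0.35), and that in muscle with thinned nuclei (0.12, adjusted p = 0.62). Igf2r overlaps Airn, a noncoding RNA on the opposite strand that is known for silencing the paternal Igf2r allele in mice, and without a stated strand setting their UMIs cannot be told apart. Airn had 2185 and 1535 CPM in fibroblasts, 1359 and 1140 CPM in endothelium, 1178 and 1059 CPM in muscle, 652 and 501 CPM in fat, and 223 and 166 CPM in macrophages. Fibroblasts were highest and macrophages lowest for both genes.

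The binding protein genes fell into a group highest in fibroblasts and a pair highest in muscle. The 250 bases before the RefSeq start of 2 genes of each group are printed because members of a group share a class, and because Igfbp2 and Igfbp5 lie tail to tail on chromosome 1, 5457 bp apart, and were highest in different classes. The sequences are from RefSeq on GRCm38.p6, run 5′ to 3′ on the strand of the gene and end just before the start. Capitals mark a GC box (GGGCGG), the letters TATAAA or a CArG box, the motif known to bind serum response factor in smooth muscle genes, searched on both strands with no overlap between different motifs printed.
Igfbp2 (highest in muscle, chr1:72824230-72824479, plus strand): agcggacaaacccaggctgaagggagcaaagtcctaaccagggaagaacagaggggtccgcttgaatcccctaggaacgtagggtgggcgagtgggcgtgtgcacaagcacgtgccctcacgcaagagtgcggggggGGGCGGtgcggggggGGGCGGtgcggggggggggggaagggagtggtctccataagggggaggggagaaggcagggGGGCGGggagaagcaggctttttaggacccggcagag
Igfbp7 (highest in muscle, chr5:77408046-77408295, minus strand): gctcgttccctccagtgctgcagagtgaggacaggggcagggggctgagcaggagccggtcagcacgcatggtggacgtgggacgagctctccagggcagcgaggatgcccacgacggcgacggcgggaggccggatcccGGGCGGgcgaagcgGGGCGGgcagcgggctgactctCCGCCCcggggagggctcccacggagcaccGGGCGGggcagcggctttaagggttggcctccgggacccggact
Igfbp4 (highest in fibroblasts, chr11:99040994-99041243, plus strand): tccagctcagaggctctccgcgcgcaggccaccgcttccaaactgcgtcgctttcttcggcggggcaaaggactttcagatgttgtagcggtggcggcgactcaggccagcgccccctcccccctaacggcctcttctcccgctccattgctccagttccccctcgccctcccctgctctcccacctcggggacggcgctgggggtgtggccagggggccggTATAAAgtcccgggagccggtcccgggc
Igfbp5 (highest in fibroblasts, chr1:72874866-72875115, minus strand): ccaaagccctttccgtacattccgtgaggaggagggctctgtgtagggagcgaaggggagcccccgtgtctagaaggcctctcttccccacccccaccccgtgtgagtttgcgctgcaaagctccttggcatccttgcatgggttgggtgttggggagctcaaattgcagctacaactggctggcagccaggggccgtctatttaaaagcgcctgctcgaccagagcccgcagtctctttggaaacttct
Igfbp2 held 3 GC boxes and Igfbp7 held 4, Igfbp4 held TATAAA from 28 to 23 bases before the start, and Igfbp5 held none of the 3 motifs. Over 27025 mouse genes, 32.9% had a GC box, 13% had TATAAA and 1.40% had a CArG box in the same 250 bases. A match is a description of letters and no sign of a bound factor, and Igfbp2 has a second RefSeq start that is not shown.

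Igfbp5 (chr1:72857932-72874884, minus strand) encodes a binding protein that attaches to extracellular matrix. It had 987 and 1352 CPM in Female and Male fibroblasts, 72.5 and 109.8 CPM in endothelium, 53.0 and 72.4 CPM in muscle, 59.2 and 40.0 CPM in macrophages, and 42.5 and 34.8 CPM in fat. Fibroblasts stood far above each other class in both libraries. The log2 difference in fibroblasts was 4.31 ± 0.16 (adjusted p = 2e-08), and the step to endothelium, next in order, was 3.64 (adjusted p = 2.1e-06). Among the other 4 classes no step between neighbours in order was called (adjusted p = 0.15, 0.16 and 0.43). Without the mesothelial nuclei the fibroblast level was 825 and 1187 CPM. Within fibroblasts, the Pi16 and Dact2 subset had 1565 and 2148 CPM, the C7 and Plcxd3 subset 457 and 731 CPM, and the Pex5l, Adamtsl2 and Lsamp subset 296 and 399 CPM, which is the reverse of the order seen for Igf1. Within muscle, nuclei marked by Lrrtm3, Lrrc7 and Adamtsl1 had 206 and 392 CPM, against 41.5 and 41.9 CPM in those marked by Pdzrn4, Sphkap and Unc5c and 24.0 and 38.5 CPM in those marked by Ptprz1 and Actn2. Without mesothelial nuclei the level of the whole muscle class was 44.3 and 55.8 CPM. The muscle subset levels were taken with mesothelial nuclei kept, and their part in them was not tested.

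Igfbp6 (chr15:102144362-102149511, plus strand) encodes a binding protein that prefers IGF2 over IGF1. It had 141 and 196 CPM in fibroblasts, 9.41 and 19.2 CPM in endothelium, 7.003 and 12.95 CPM in muscle, 8.07 and 6.59 CPM in macrophages, and 4.598 and 7.351 CPM in fat. The log2 difference in fibroblasts was 4.26 ± 0.12 (adjusted p = 5e-09). Muscle was called lower (-0.73 ± 0.16, adjusted p = 0.0033). That call was lost without called doublets (-0.49, adjusted p = 0.099) and without the library as a block (-0.73, adjusted p = 0.096). Without mesothelial nuclei, whose own level was 867 and 834 CPM over 267 and 442 nuclei of the tissue, the fibroblast level was 97.2 and 145 CPM, still the highest of the 5 classes in both libraries. In the fibroblast subsets it had 159 and 197 CPM in Pi16 and Dact2 nuclei, 109 and 161 CPM in C7 and Plcxd3 nuclei, and 26.4 and 54.4 CPM in Pex5l, Adamtsl2 and Lsamp nuclei, the same order as for Igfbp5. Fibroblast nuclei with fewer than 2 UMIs of each subset's markers, 217 Female and 244 Male, had 478 and 515 CPM of Igfbp6 and 1836 and 2124 CPM of Igfbp5. In muscle the Lrrtm3, Lrrc7 and Adamtsl1 nuclei were again highest, with 37.4 and 60.0 CPM, against 4.63 and 7.73 CPM in the Pdzrn4, Sphkap and Unc5c nuclei and 1.90 and 7.17 CPM in the Ptprz1 and Actn2 nuclei. These subset levels were taken with mesothelial nuclei kept, and without such nuclei the whole muscle class had 4.94 and 9.25 CPM of Igfbp6.

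Igfbp4 (chr11:99041244-99054392, plus strand) encodes a binding protein that inhibits IGF action until the protease pappalysin cuts it. It had 516 and 620 CPM in fibroblasts, 92.0 and 189 CPM in endothelium, 120 and 117 CPM in macrophages, 27.7 and 70.3 CPM in fat, and 34.3 and 45.6 CPM in muscle. Fibroblasts were highest in both libraries, and their log2 difference was 2.92 ± 0.17 (adjusted p = 4.7e-07). Muscle (-1.72 ± 0.22, adjusted p = 0.00012) and fat (-1.62 ± 0.23, adjusted p = 0.00011) were called lower. Endothelium (0.36, adjusted p = 0.16) and macrophages (0.06, adjusted p = 0.87) were not called, although endothelium was called higher with no filter on low counts (0.41, adjusted p = 0.00049). Unlike Igfbp5, Igfbp4 did not keep 1 order of the fibroblast subsets across the libraries, with 540 and 681 CPM in Pi16 and Dact2 nuclei, 574 and 670 CPM in C7 and Plcxd3 nuclei, and 477 and 436 CPM in Pex5l, Adamtsl2 and Lsamp nuclei.

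Igfbp3 (chr11:7206086-7213923, minus strand) encodes the main IGF carrier of blood plasma and was the member with the fewest UMIs. It had 18.97 and 10.44 CPM in fibroblasts, from 168 and 105 UMIs, and 2.83 and 2.34 CPM in endothelium, from 53 and 57 UMIs. Muscle had 0.637 and 0.318 CPM, fat had 3 UMIs in each library, and macrophages had 1 Female and 0 Male UMIs, where a count of 0 allows up to 1.32 CPM. The log2 difference was 4.62 ± 0.26 in fibroblasts (adjusted p = 3.4e-07) and 1.61 ± 0.34 in endothelium (adjusted p = 0.0031). Both libraries placed fibroblasts first and endothelium second. The Pex5l, Adamtsl2 and Lsamp fibroblasts had 50.8 and 27.2 CPM, against 11.5 and 7.91 CPM in C7 and Plcxd3 fibroblasts and 5.25 and 8.27 CPM in Pi16 and Dact2 fibroblasts.

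Igfbp7 (chr5:77349240-77408041, minus strand) had 799 and 859 CPM in muscle, 432 and 455 CPM in fibroblasts, 229 and 170 CPM in fat, 195 and 155 CPM in endothelium, and 92.1 and 59.3 CPM in macrophages. The order of the 5 classes was the same in both libraries. The log2 difference was 2.31 ± 0.12 in muscle (adjusted p = 1.7e-07), 1.02 ± 0.13 in fibroblasts (adjusted p = 0.00013) and -2.26 ± 0.18 in macrophages (adjusted p = 3.1e-06). Fat (-0.44 ± 0.14, adjusted p = 0.02) and endothelium (-0.63 ± 0.14, adjusted p = 0.0052) were called lower. The call in fat was lost without called doublets (-0.16, adjusted p = 0.44) and with the largest marker sum at least 2 times the second (-0.24, adjusted p = 0.18). It was also lost with thinned nuclei (-0.27, adjusted p = 0.092) and without the library as a block (-0.43, adjusted p = 0.059). Among fibroblasts the Pex5l, Adamtsl2 and Lsamp nuclei had 757 and 804 CPM, against 407 and 486 CPM in C7 and Plcxd3 nuclei and 273 and 349 CPM in Pi16 and Dact2 nuclei. White-type fat nuclei had 439 and 258 CPM, and brown-type nuclei 122 and 89.3 CPM. In endothelium, Nrg1 and Emcn nuclei had 334 and 250 CPM, and Ankrd33b, Chn2 and Fgfr3 nuclei 131 and 110 CPM. Igfbp7 overlaps the opposite-strand genes Polr2b and Gm34648.

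Igfbp2 (chr1:72824503-72852474, plus strand) encodes a binding protein that attaches to matrix and integrins. It had 8.80 and 12.5 CPM in muscle, from 318 and 353 UMIs, which were 95.5% and 89.4% of its UMIs in the Female and Male libraries. Every other class stayed under 1 CPM in both libraries, with 8 and 22 UMIs in endothelium, 3 and 9 in fibroblasts, 2 and 3 in fat, and 0 and 2 in macrophages. The log2 difference was 4.61 ± 0.24 in muscle (adjusted p = 1.3e-07). At 1000 UMIs a nucleus, 0.667% of Female and 1.06% of Male muscle nuclei held an Igfbp2 UMI, against 0.0401% and 0.063% in endothelium. Its level differed between the muscle subsets: Ptprz1 and Actn2 nuclei had 23.1 and 23.8 CPM, Pdzrn4, Sphkap and Unc5c nuclei 6.33 and 6.93 CPM, and Lrrtm3, Lrrc7 and Adamtsl1 nuclei 0.451 and 0.513 CPM. That order was the reverse of the one seen for its neighbour Igfbp5. The Ptprz1 and Actn2 nuclei, 1201 Female and 2045 Male, held 42.1% and 61.2% of the Igfbp2 UMIs of muscle, and the Pdzrn4, Sphkap and Unc5c nuclei, 5243 and 3402, held 50.3% and 26.9%.

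**Figure D3:**
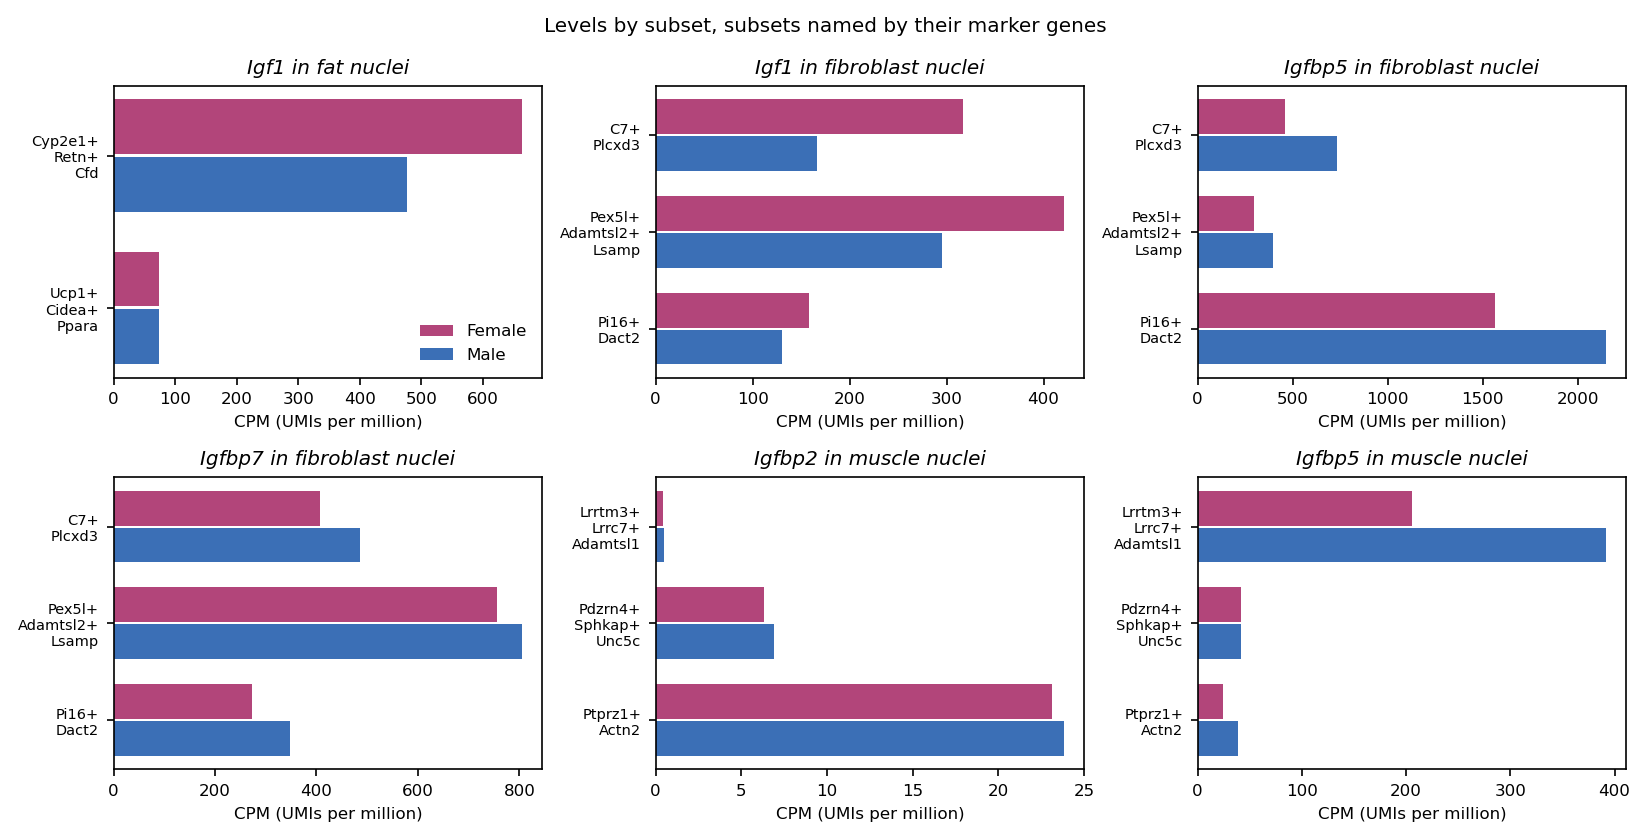
Bars give CPM by subset of nuclei, each subset named by its marker genes, Female above Male, with a scale from 0 in each panel. Igf1 stood at 476 to 663 CPM in fat nuclei marked by Cyp2e1, Retn and Cfd and near 74 CPM in those marked by Ucp1, Cidea and Ppara, and Igfbp2 and Igfbp5 ran in opposite orders over the muscle subsets.

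Of 38 further genes of the pathway, 34 could be tested. In fibroblasts 16 were higher (23.9% of all genes) and 6 lower (19.7%). In muscle 15 were higher (24.3%) and 10 lower (23%), and in endothelium 11 were higher (24.3%) and 11 lower (21.4%). In fat 13 were higher and 9 lower, near the 32.8% and 33.3% of all genes. In macrophages 4 were higher (19.3%) and 16 lower (22.3%). A class with 0 UMIs for 7 of these genes made the fitted medians uncertain: with such genes set at a floor of 3 UMIs over a class, the median was 0.03 in muscle, -0.24 in endothelium, 0.22 in fibroblasts, -0.31 in fat and -0.36 in macrophages, while the fitted values were 0.28, 0.19, 0.22, 0.28 and -1.09.

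The pappalysin genes, whose products cut IGF binding proteins, and the genes of the stanniocalcins that inhibit them were highest in fibroblasts. Pappa, which encodes the protease that cuts IGFBP4, had 104.9 and 55.7 CPM in fibroblasts and at most 8.24 CPM in any other class (log2 difference 4.09 ± 0.17, adjusted p = 4.1e-08). Pappa2, which encodes a related protease that cuts IGFBP3 and IGFBP5, had 19.3 and 10.6 CPM in fibroblasts, at most 0.672 CPM in the others and 0 UMIs in macrophages. The stanniocalcin genes Stc2 (20.3 and 24.7 CPM) and Stc1 (12.2 and 3.28 CPM) were also highest in fibroblasts, with 4.15 and 7.25 CPM and 3.02 and 1.84 CPM in muscle. All of these were called higher in fibroblasts. Htra1, which encodes another secreted protease known to cut IGF binding proteins, was highest in endothelium, with 151 and 134 CPM (1.64 ± 0.09, adjusted p = 3.5e-07), and had 86.7 and 72.8 CPM in fibroblasts. The imprinted noncoding RNA H19 was called higher in fibroblasts as well, from 22 and 34 UMIs. The insulin receptor related gene Insrr was called higher in endothelium, from 22 and 29 UMIs, and in fibroblasts, from 15 and 3 UMIs.

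Several genes of growth hormone and insulin signalling were called higher in fat. Others were called lower there, among them Akt1 (-0.46 ± 0.14), Pik3ca (-0.44 ± 0.09), Stat5b (-0.22 ± 0.08) and Shc1 (-0.21 ± 0.08). Ghr, the growth hormone receptor that drives Igf1 transcription in liver, had 4150 and 5484 CPM in fat and at most 1031 CPM in any other class (3.23 ± 0.12, adjusted p = 9.1e-09). Pik3r1, a regulatory subunit of phosphoinositide 3-kinase, had 1717 and 1932 CPM in fat (3.02 ± 0.09), Stat5a, a transcription factor under the growth hormone receptor, 193 and 178 CPM (2.72 ± 0.08), and Irs1, an adaptor of both the insulin and IGF1 receptors, 474 and 321 CPM (2.56 ± 0.09). Igfals, which encodes the acid labile subunit of the plasma IGF complex, had 12.1 and 11.7 CPM in fat (2.58 ± 0.18). The insulin receptor gene Insr had 541 and 518 CPM in fat (0.69 ± 0.12, adjusted p = 0.00043), so in fat the insulin receptor gene was called higher where Igf1r was called lower. In muscle, where Igf1r was highest, Insr was called higher as well (415 and 463 CPM, 0.50 ± 0.12, adjusted p = 0.0054).

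In macrophages, Igf1 was high while Ghr (125 and 162 CPM, -3.13 ± 0.18), Irs1 (19.5 and 11.4 CPM, -3.37 ± 0.17) and Grb10, an adaptor that inhibits the receptors (23.5 and 22.8 CPM, -2.95 ± 0.16), were low. Their adjusted p were 3.1e-07, 9e-08 and 1.6e-07. Grb14, another inhibitory adaptor, was called higher both in muscle (179 and 143 CPM, 2.41 ± 0.10) and in fat (155 and 168 CPM, 2.27 ± 0.10). Endothelium was lower for Grb14 (10.2 and 10.3 CPM, -2.65 ± 0.13) and Irs2 (4.81 and 8.24 CPM, -2.88 ± 0.20). The second ligand gene, Igf2, had 30 and 50 UMIs in endothelium (1.60 and 2.05 CPM), 1 and 7 in muscle, and 0 in the other 3 classes of both libraries. Ins2 had 70 and 52 UMIs in muscle and at most 4 in any other class and library. Igf2bp2, which encodes an RNA binding protein of Igf2 transcripts, was higher in endothelium (2.46 ± 0.13) and lower in muscle (-1.80 ± 0.18).

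Nuclei with at least 1 GFP and 0 tdTomato UMIs were compared with nuclei with at least 1 tdTomato and 0 GFP UMIs, in muscle (2420 Female and 2196 Male GFP-only nuclei, against 1729 and 1430 tdTomato-only nuclei) and in fibroblasts (415 and 450 GFP-only, against 285 and 321 tdTomato-only). In muscle 0 of the 8 members tested were called by edgeR, and 0 by DESeq2, where 0.996% of 14558 genes were higher and 1.19% lower. One, Igfbp4, had an unadjusted p under 0.05 (37.5 and 47.1 CPM in GFP-only, against 25.8 and 44.6 CPM in tdTomato-only muscle, log2 difference 0.30, adjusted p = 0.36). Igfbp4 was called higher in GFP-only muscle without called doublets (0.58, adjusted p = 0.0038) and among nuclei whose largest marker sum was at least 2 times the next (0.52, adjusted p = 0.00048). Igf1r had 836 and 847 CPM in GFP-only muscle, against 840 and 870 CPM in tdTomato-only muscle (-0.02 ± 0.03, adjusted p = 0.86).

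Within muscle, the Lrrtm3, Lrrc7 and Adamtsl1 subset made up 9.05% and 8.29% of the GFP-only nuclei, against 1.56% and 2.31% of the tdTomato-only nuclei. Igfbp5 in that subset had 136 and 199 CPM in GFP-only nuclei, against 327 and 1620 CPM in tdTomato-only nuclei, the tdTomato-only values resting on 27 and 33 nuclei. Among all tdTomato-only muscle nuclei, 4 Female and 8 Male were mesothelial by their markers, with 2392.5 and 3812 CPM of Igfbp5. Without mesothelial nuclei, tdTomato-only muscle had 35.2 and 64.2 CPM of Igfbp5, against 39.2 and 93.0 CPM with them. Their part in the subset values was not tested. Igfbp2 in the Ptprz1 and Actn2 subset had 24.2 and 30.9 CPM in GFP-only nuclei, against 20.6 and 20.5 CPM in tdTomato-only nuclei. These subset values carry no test.

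In fibroblasts 1 of 8 members was called higher (1.22% of 10840 genes) and 1 lower (3.11%) in GFP-only nuclei. Igfbp4 had 626 and 753 CPM in Female and Male GFP-only fibroblasts, against 362 and 420 CPM in tdTomato-only fibroblasts. The values of GFP-only and tdTomato-only fibroblasts did not overlap, and the log2 difference was 0.84 ± 0.14 (adjusted p = 0.00032). Without the library as a block the same difference had adjusted p = 0.105. Within each of the 3 fibroblast subsets and in both libraries, the GFP-only value of Igfbp4 lay above the tdTomato-only value. In the Pi16 and Dact2 subset it had 647 and 831 CPM in GFP-only, against 405 and 515 CPM in tdTomato-only nuclei. In the C7 and Plcxd3 subset it had 645 and 823 CPM in GFP-only, against 379 and 535 CPM in tdTomato-only nuclei, and in the Pex5l, Adamtsl2 and Lsamp subset 647 and 414 CPM in GFP-only, against 331 and 299 CPM in tdTomato-only nuclei. With mesothelial nuclei left out, Igfbp4 had 636 and 764 CPM in GFP-only, against 374 and 488 CPM in tdTomato-only fibroblasts.

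Igfbp6 had 120 and 139 CPM in GFP-only fibroblasts, against 216 and 348 CPM in tdTomato-only fibroblasts (-1.08 ± 0.15, adjusted p = 7.2e-05). Mesothelial nuclei made up 0.964% and 2% of the GFP-only, against 6.32% and 17.4% of the tdTomato-only fibroblasts. When these were left out, an alternative chosen after seeing the data, Igfbp6 had 111 and 128 CPM in GFP-only, against 111 and 158 CPM in tdTomato-only fibroblasts, and the call was lost (-0.14, adjusted p = 0.89). It was also lost without the library as a block (-1.11, adjusted p = 0.094). Igfbp5 had 1014 and 1246 CPM in GFP-only, against 1287 and 1727 CPM in tdTomato-only fibroblasts (-0.39 ± 0.13, adjusted p = 0.12). It was called lower in GFP-only fibroblasts without called doublets (-0.50, adjusted p = 0.0196) and with the largest marker sum at least 2 times the next (-0.45, adjusted p = 0.0196). Without mesothelial nuclei it had 917 and 1208 CPM in GFP-only, against 996 and 1261 CPM in tdTomato-only fibroblasts. Igf1 had 361 and 136 CPM in GFP-only, against 269 and 165 CPM in tdTomato-only fibroblasts, opposite directions in the 2 libraries (0.11, adjusted p = 0.90). Of the further pathway genes, Stc1 was called higher in GFP-only fibroblasts, from 36 and 10 UMIs in GFP-only and 5 and 2 UMIs in tdTomato-only nuclei, with 19.3 and 4.98 CPM, against 3.93 and 1.34 CPM in tdTomato-only fibroblasts (2.16 ± 0.56, adjusted p = 0.026).

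**Figure D4:**
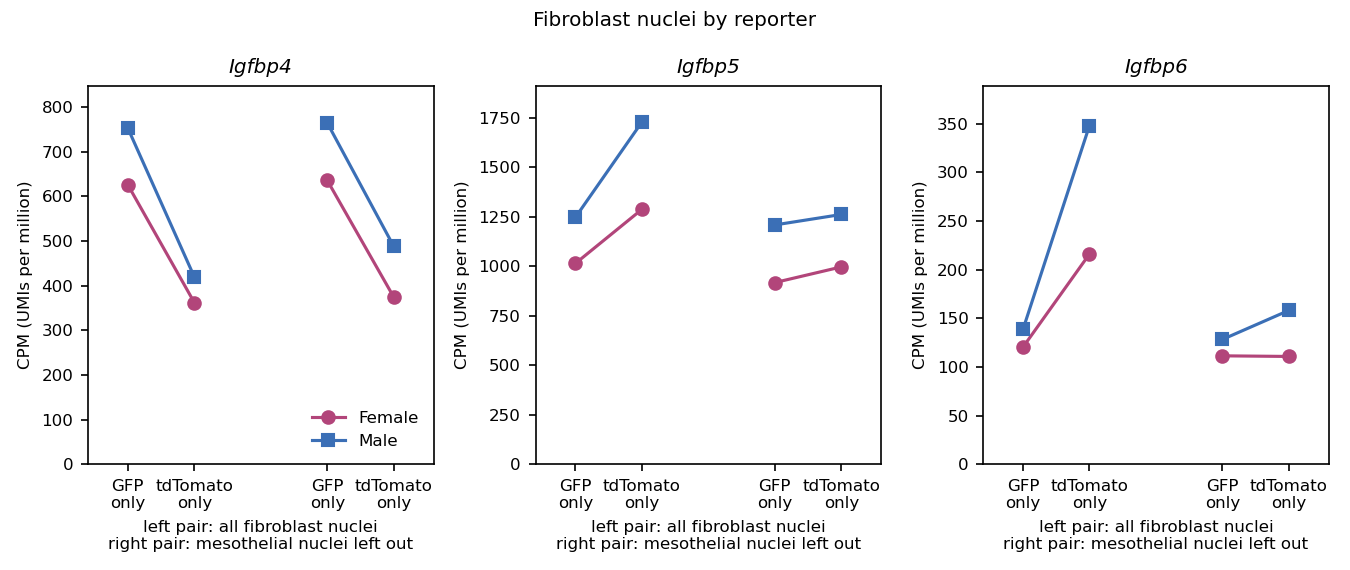
Points joined by lines give the CPM of 3 binding protein genes in GFP-only (left) and tdTomato-only (right) fibroblast nuclei of each library, first for all fibroblast nuclei and then with mesothelial nuclei left out. Igfbp4 was higher in GFP-only nuclei in both pairs, and Igfbp6 stood at 216 and 348 CPM in tdTomato-only nuclei with mesothelial nuclei and at 111 and 158 CPM without them.

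The sexes were compared in CPM with no test, since each was 1 library. Values were set as log2 ratios, Female over Male, with 5 CPM added to each, and 28 values of a member in a class had at least 50 UMIs and 20 CPM in either library. Of these 28, 1 was at least 2-fold apart: Igfbp4 in fat, with 27.7 CPM in the Female and 70.3 CPM in the Male library. Its ratio was 0.394 (exact 95% interval 0.343 to 0.451, counting error only), and its log2 value -1.20. Of 12 fibroblast and endothelial markers, 12 were lower in Female than in Male fat nuclei, with summed levels of 52.9 CPM in Female and 106 CPM in Male for the 6 fibroblast markers and of 62.8 CPM in Female and 152 CPM in Male for the 6 endothelial markers, and their part in the Igfbp4 difference was not tested. With nuclei whose largest marker sum was less than 2 times the second left out, the log2 value was -1.15. Of all genes measured, 2.02% were as far apart in fat, 0.375% in muscle, 0.412% in endothelium, 0.905% in fibroblasts and 1.94% in macrophages. Igfbp4 in endothelium, 92.0 CPM in Female and 189 CPM in Male nuclei, lay just inside the limit at -0.999 on the log2 scale, and it had a ratio of 0.487 (0.461 to 0.515). Igfbp4 was lower in Female nuclei of each of the 4 endothelial subsets and of both kinds of fat cell, for example 55.5 CPM in Female and 118 CPM in Male white-type nuclei, and 12.4 CPM in Female and 27.2 CPM in Male brown-type nuclei. In macrophages it had 120 CPM in Female and 117 CPM in Male nuclei.

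Igf1 in fibroblasts had 281 CPM in Female and 162 CPM in Male nuclei, a ratio of 1.73 (1.62 to 1.84), while in fat the ratio was 1.04 (0.985 to 1.10). Female nuclei were higher for Igf1 in each of the 3 fibroblast subsets. The Pex5l, Adamtsl2 and Lsamp nuclei, which had the most Igf1, numbered 530 of the Female and 232 of the Male fibroblasts, and the part of this split in the sex difference was not tested. Igf1r was close in the 2 libraries, with a ratio of 0.991 (0.974 to 1.01) in muscle, 1.01 (0.924 to 1.10) in fat and 1.23 (1.20 to 1.26) in endothelium. Across the 28 values 12 were above and 16 below 1 with the added 5 CPM, and 21 of the exact intervals did not include 1. For most of these values the libraries thus differed by more than counting error. The same share over all genes was not taken, so the count is not read as a trait of the members. Among pathway genes that passed the same filter, Socs2, an inhibitor of growth hormone signalling, was at least 2-fold apart, in fat (log2 value 1.13). Stc1 in fibroblasts fell under the 20 CPM limit of the filter. It had 12.2 CPM in Female and 3.28 CPM in Male nuclei, from 108 and 33 UMIs (log2 value 1.05).

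**Figure D5:**
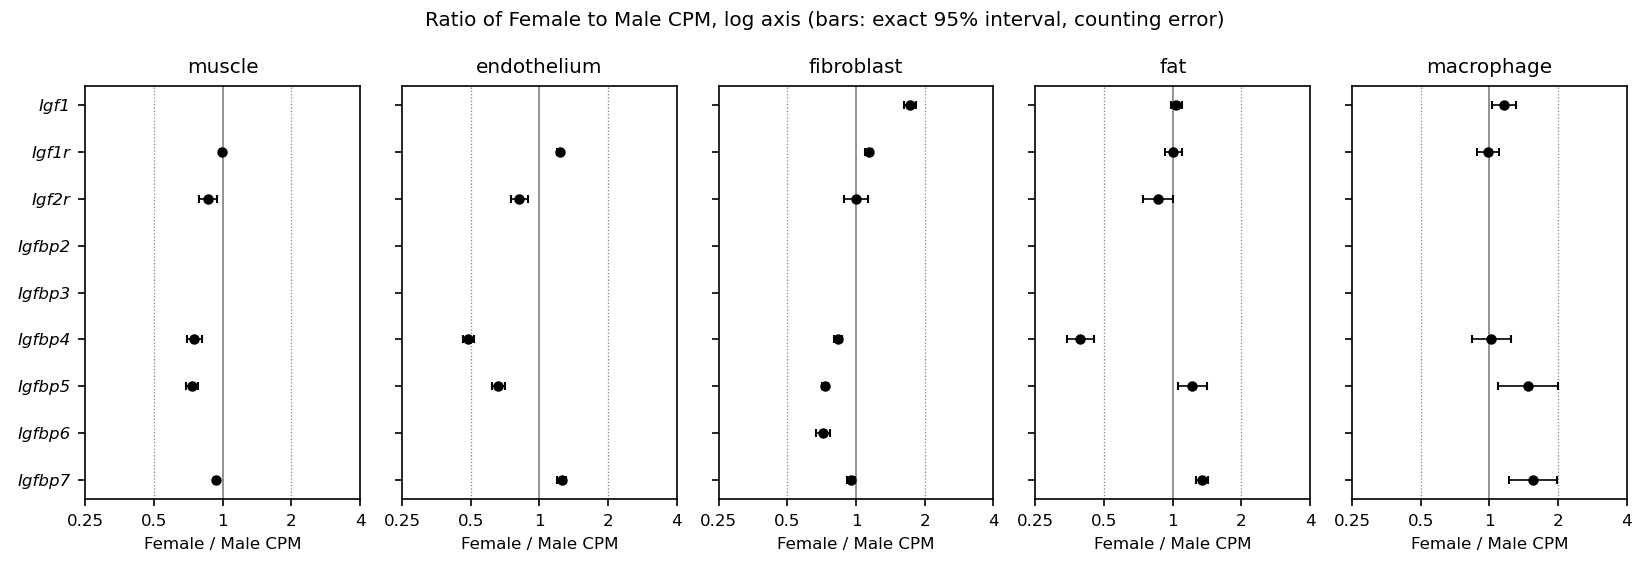
Points give the ratio of Female to Male CPM, on a log axis, for the members that passed the filter in each class, with exact 95% intervals for counting error and dotted lines at 2-fold. Igfbp4 in fat lay at 0.394 and in endothelium at 0.487, Igf1 in fibroblasts lay at 1.73, and no library has a replicate.

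Over the 10 sums of class and library, each member was set against 14342 other genes by Pearson's r of log2(CPM + 5), as a description with no test, since the sums share libraries and depth. The 3 most alike genes were Mbp, Fam50a and Tmem131 for Igf1, Ywhae, Dip2c and Dynll1 for Igf1r, and Tns2, Hoxb4 and Myo6 for Igf2r. They were B3galt5, Abra and Casq1 for Igfbp2, Socs5, Glt8d2 and Myoc for Igfbp3, and Cd55, Socs3 and Hook3 for Igfbp4. They were Igfbp6, Pcolce and Tril for Igfbp5, Sult5a1, Tmem100 and Gfpt2 for Igfbp6, and Fam185a, B3galt1 and Fat1 for Igfbp7. The 27 values of r lay between 0.956 and 0.996, and 1 of the 27 genes was itself a member, Igfbp6 beside Igfbp5 (r = 0.993).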

How the data were processed

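Per the file headers, the deposited matrices hold UMI counts per gene and barcode written by Cell Ranger 7.0.0. The submitters' processing notes name GRCm38, STAR, Cell Ranger and Seurat 4.4.0. How introns and strand were treated in the counting is not stated in those notes, the labels or the headers. The 9 members, the marker sets and the pathway list were chosen with earlier results of these data known.

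Barcodes with at least 300 genes were kept and grouped by marker UMI sums. UMIs were summed per library and class and tested with edgeR 4.0.16 (R 4.3.3): TMM scaling, genes with at least 50 UMIs, library as a block, quasi-likelihood F test, Benjamini-Hochberg adjustment over all genes tested, threshold 0.05. Every adjusted p in the text without another tool's name is from these edgeR fits; an SE is the log2 difference over the square root of F. GFP-only and tdTomato-only nuclei were summed in the same way, 4 sums a class. The sexes had 1 library each and no test. DESeq2 1.42.0 was an alternative. Doublets were called with scrublet in scanpy 1.11.5 at an expected rate of 0.08, 942 Female (4.99%) and 1504 Male (7.28%), and were left out as an alternative. The tests were also run on simulated sums with planted changes in some genes and no other difference between classes or libraries than depth. Real classes and libraries differ in more ways, so that run gives no error rate for these data. Python 3.11.15, numpy 2.4.6, scipy 1.17.1 and pandas 2.3.3 were used.

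The libraries held 79289188 Female and 77986363 Male UMIs in kept nuclei. Intervals (95%, exact Poisson or binomial) and the floor of 3 UMIs cover counting error only. Named were all 9 members, up to 6 called pathway genes a class by size of the log2 difference, and the 3 genes most correlated with each member. One pathway gene that the rule names is not reported here. Airn, Htra1, Insr, Socs2, Akt1, Pik3ca, Stat5b and Shc1 fall outside that rule and were chosen after their values were seen. Gene positions are from GENCODE M21, promoters from RefSeq.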

Additional observations from a re-analysis of the deposited data

Results flagged for a closer look

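The ratio of Female to Male CPM ran in opposite directions in different classes for 2 members. Igfbp5 had a ratio of 1.48 in macrophages (exact 95% interval 1.09 to 2.01), from 88 Female and 91 Male UMIs, and of 0.660 in endothelium (0.618 to 0.705). Its ratio was 1.22 in fat (1.06 to 1.41), 0.732 in muscle (0.687 to 0.779) and 0.730 in fibroblasts (0.710 to 0.750). The macrophage UMIs of Igfbp5 lay in only 27 Female and 48 Male nuclei. The share of macrophages with an Igfbp5 UMI was lower in Female (5.61%) than in Male (6.90%), opposite to the ratio. The interval does not cover the clustering of UMIs in few nuclei. Igfbp7 had a ratio of 1.55 in macrophages (1.22 to 1.99), from 137 Female and 135 Male UMIs, and of 0.930 in muscle (0.915 to 0.946). Its ratio was also above 1 in fat (1.35, 1.26 to 1.43) and endothelium (1.25, 1.20 to 1.31), and below 1 in fibroblasts (0.949, 0.909 to 0.991). Markers of several other cell types were also higher in Female macrophages. Summed levels were 185 CPM in Female and 125 CPM in Male for the 6 fibroblast markers, 428 and 345 CPM for the 6 endothelial, 65.2 and 33.4 CPM for the pericyte and 35.0 and 8.78 CPM for the mesothelial markers. Other markers went the other way. Those of T or NK cells were 30.9 CPM in Female and 118 CPM in Male. Every muscle and fat marker was higher in Male macrophages, such as Myh11 (241 CPM in Female and 286 CPM in Male), Myocd (37.0 and 96.2 CPM) and Plin1 (17.5 and 51.8 CPM). The part of any of these markers in the ratios was not tested. With nuclei of other cell types left out, macrophages had 83.7 CPM in Female and 59.6 CPM in Male of Igfbp7, and 60.2 CPM in Female and 40.2 CPM in Male of Igfbp5. Neither difference between classes was tested, since each sex was 1 library, and the intervals cover counting error only.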

How the results depend on the processing

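Of the counts of members per comparison, 110 values under alternatives stayed within 1.5 times the reported count and 12 did not. In fat 5 members were called with nuclei thinned to 1000 UMIs, against 9. Between GFP-only and tdTomato-only muscle, 1 was called (Igfbp4) without called doublets and 1 with the largest marker sum at least 2 times the second, against 0. Between GFP-only and tdTomato-only fibroblasts, against 2, 1 was called with other cell types or only mesothelial nuclei left out, the second chosen after seeing the data, and 0 with no replicate block. The library is the block because all sums of a library come from the same pool of mice. Between the sexes, 1 member was apart in endothelium (against 0) without doublets, with the largest marker sum at least 2 times the second, with a marker sum of at least 5, without other cell types and with a pseudocount of 1 CPM, and 0 in fat (against 1) with 20 CPM. Single values that turned round were called neither as reported nor under the alternative. Against the other classes these were Igfbp6 in endothelium (0.017 without other cell types, 0.036 without mesothelial nuclei), Igfbp4 in macrophages (-0.0046 and -0.015) and, thinned, Igfbp3 in muscle (0.015) and Igfbp2 in endothelium (0.34). Between reporters in muscle they were Igf1 (-0.015), Igfbp2 (-0.18) and Igfbp7 (-0.0027) without doublets, Igfbp2 (-0.11) with the 2-times rule, Igfbp5 (0.15) with a marker sum of at least 5, 0.068 without other cell types and 0.065 without mesothelial nuclei, Igfbp7 (-0.061) thinned, and Igfbp2 (-0.35) and Igfbp6 (0.11) with at least 2 reporter UMIs. In fibroblasts they were Igf1 (-0.019 with the 2-times rule, -0.027 without other cell types, -0.047 without mesothelial nuclei, -0.24 thinned) and Igfbp7 (-0.033 without mesothelial nuclei). The cause was not tested. With 2 pooled libraries, leaving one out leaves no test, and Igfbp2 and Igfbp3 rest on few UMIs outside their highest class.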

Other observations

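Nuclei whose largest marker sum was that of a type outside the 5 classes also held IGF system genes. Mesothelial nuclei (267 Female, 442 Male) had 3929 and 3372 CPM of Igfbp5 and 867 and 834 CPM of Igfbp6, above the levels of the fibroblast class in both libraries. Lymphatic endothelial nuclei (28 and 60) had 2540 and 1260 CPM of Igfbp5 and 78.6 and 33.7 CPM of Igfbp3. Pericyte marker nuclei (266 and 188) had 295 and 285 CPM of Igf1, 362 and 429 CPM of Igfbp4 and 726 and 700 CPM of Igfbp7. Part of these groups was also counted in the 5 classes. The fibroblast class held 122 Female and 84 Male of the pericyte marker nuclei, and 66 and 137 of the mesothelial nuclei. Glial marker nuclei (22 and 16) had 1389 and 990 CPM of Igf1r. B cell marker nuclei (136 and 58) had 113 and 172 CPM of Igf1r. These groups were small and no test was made.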
